A study of Mus musculus with 116 samples.

Results

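The comparison of the PN5 zygote with the MII oocyte covers the hours in which the egg leaves meiotic arrest, forms pronuclei and completes its first S phase. RNA levels of 6009 genes were compared, out of 24028 gene symbols found in all total RNA tables of the series. A gene was compared when either library, or both, held it at 10 FPKM or above, FPKM being a fragment count corrected for transcript length and library size. The nearest genes inside that limit were Gatsl2 (10.0 FPKM in PN5 zygotes against 7.98 FPKM in MII oocytes) and Fam135a (10.0 against 4.77 FPKM), and the nearest outside it was Has3 (6.81 against 10.0 FPKM, the last just under the limit). PN5 zygotes were collected 30 h after hCG and MII oocytes 13 h after hCG, both from 8-week-old females primed with PMSG and then hCG and both labelled wild-type. Per the series' design text, wild-type embryos came from C57BL/6N females mated with PWK males; the strain of the oocytes is not stated in the labels. About 100 pooled embryos or oocytes went into each library, from which ribosomal RNA was removed, with no selection for poly(A) tails.

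The ovulated mouse oocyte is held in metaphase of the second meiotic division by cytostatic activity that runs through Mos and the MAP kinases. It transcribes almost nothing, and its stored mRNAs are translated, deadenylated or degraded in a set order after fertilization. By PN5, the last pronuclear stage, DNA has been replicated and a first low wave of zygotic transcription has begun, while the main activation in the mouse follows at the 2-cell stage.

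There was 1 library per stage, so no difference has a replicate check and no test was made. FPKM values are printed as deposited. A difference is log2(FPKM + 1) in PN5 minus the same in MII, after the PN5 values were divided by 1.26, the median PN5/MII ratio of the 6397 genes at 5 FPKM or more in both libraries. The pseudocount of 1 FPKM shrinks the difference of low genes. A gene is called higher or lower when its difference is 1 or more in size, close to a factor of 2. FPKM is a share of a library, and with pooled embryos a smaller number of embryos and less RNA per embryo cannot be told apart. Read depth is unknown, because the tables give no counts.

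Marker genes of the oocyte and of other cell types were looked up in both libraries. All 10 oocyte markers were above 1 FPKM in both libraries, so their presence does not tell the stages apart. Their summed levels were 4170 FPKM in PN5 zygotes and 4940 FPKM in MII oocytes. After the centring above, 6 of the 10 (60.0%, against 12.9% of all genes) were lower in PN5 and 0 were higher, with a median of −1.31. Without centring 5 were lower and 1 was higher. Of 24 cumulus and granulosa markers, 3 reached 1 FPKM in PN5 zygotes and 3 in MII oocytes, 11 and 5 were listed at 0, and the sums were 141 and 107 FPKM. Serpine2, a protease inhibitor also made by other cells, held most of that sum (124 FPKM in PN5 zygotes against 90.9 FPKM in MII oocytes). The other compared marker of this list was Cyp19a1, with 12.2 FPKM in PN5 zygotes against 8.28 FPKM in MII oocytes (0.21). Of 24 sperm and spermatid markers, 4 reached 1 FPKM in each library, with sums of 79.2 FPKM in PN5 zygotes and 55.3 FPKM in MII oocytes; Odf2 made up 68.7 and 47.3 FPKM of these, and the protamine gene Prm1 and the transition protein gene Tnp1 were listed at 0 in both. Of 13 blood and stromal markers only Pecam1 reached 1 FPKM in either library (15.7 FPKM in PN5 zygotes against 19.4 FPKM in MII oocytes). No member of a list of 9 genes, made up of Xist, Tsix and Y-linked genes, reached 1 FPKM in either library.

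After centring, 4988 of the 6009 genes differed by less than 1 between the stages. The median difference, which centring sets near 0, was 0.02, and the quartiles were −0.49 and 0.41. In PN5 zygotes 245 genes (4.08%) were higher and 776 genes (12.9%) were lower. Without the division by the median ratio the split was 715 higher and 570 lower, and the median of all genes moved up by 0.32, so each count below depends on where the centre is set. Among the 128 genes at 200 FPKM or more in both libraries, 5 were higher and 11 were lower in PN5. Both shares are below the 4.08% and 12.9% of all compared genes. The 5 were Hist1h4c, Hist1h2bk, the RNase P RNA Rpph1, Rfpl4, which encodes an oocyte RING-finger-like protein, and Spin1, which encodes an oocyte spindle-associated histone reader. The 11 were Ubb, Zar1, H1foo, Gdf9, Lsm14b, Ldhb, Padi6, Rdx, Oog1, Eef1a1 and Gm15698. Ubb, a polyubiquitin gene, had 292 FPKM in PN5 zygotes against 1219 FPKM in MII oocytes. Ldhb, the lactate dehydrogenase subunit of the egg, had 621 against 1267 FPKM. Rfpl4 had 1571 FPKM in PN5 zygotes against 602 FPKM in MII oocytes, and Spin1 had 2445 against 968 FPKM, close to the line at a difference of 1.01. These 16 genes were picked out after their values were seen, by their level and their call. The scatter of PN5 against MII levels shows the band that most genes formed and the genes that lie outside it.

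**Figure D1:**
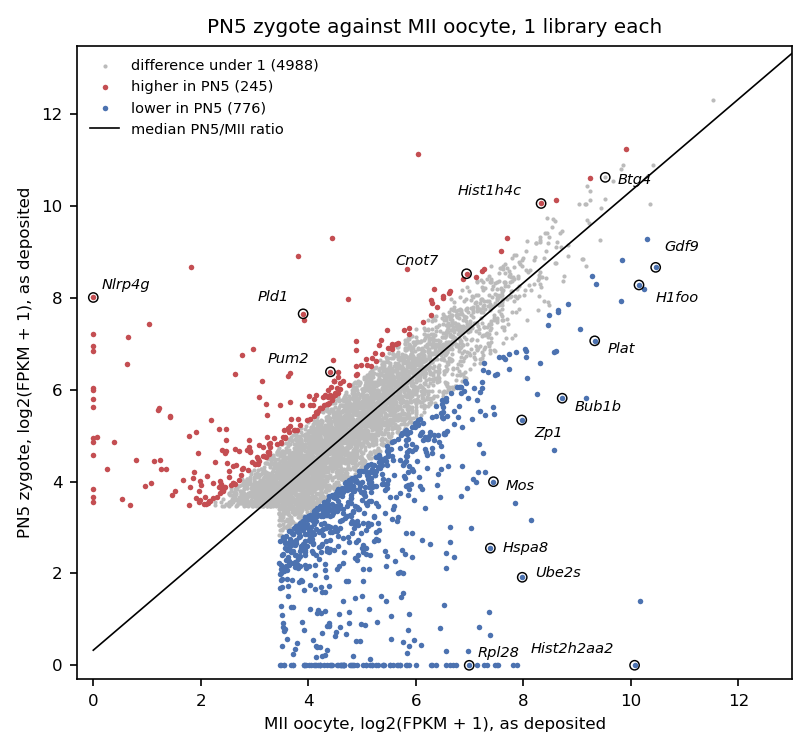
Levels of the 6009 compared genes in the PN5 zygote library (vertical axis) and the MII oocyte library (horizontal axis), both as log2(FPKM + 1) as deposited. Red points are the 245 genes higher in PN5, blue points the 776 genes lower in PN5, grey points the other 4988 genes, rings mark named genes, and the line is the median PN5/MII ratio; the points along each axis are genes near 0 in 1 library.

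The 2 libraries come from tables written in different number formats, so the calls were set beside a second pair of libraries that crosses the same formats. The PN5 values share a table with the late 2-cell libraries, whereas the MII table has the number format of the early 2-cell table. Late 2-cell control embryos, which were collected as zygotes at 23 h after hCG, cultured for 14 h in 0.1% DMSO and then for 12 h without it, were therefore compared with early 2-cell embryos, collected at 36 h after hCG. That pair crosses the same split and shares no library with PN5 and MII. Over the same 6009 genes, 22.7% were higher and 21.2% were lower in late than in early 2-cell embryos. Of the 245 genes higher in PN5, 180 (73.5%) were also higher in late than in early 2-cell embryos, which is 13.2% of the 1362 genes higher there. Of the 776 genes lower in PN5, 337 (43.4%) were also lower in late 2-cell embryos, or 26.4% of the 1276 genes lower there. Of the 4988 other genes, 21.3% were higher and 18.7% were lower in late 2-cell embryos. Table and stage cannot be told apart in either pair, and a gene that repeats its direction is named below as one that differed likewise between the 2-cell tables. Of the 16 abundant genes above, 10 did so: Hist1h2bk, Spin1, Ubb, Zar1, H1foo, Ldhb, Padi6, Oog1, Eef1a1 and Gm15698.

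**Figure D2:**
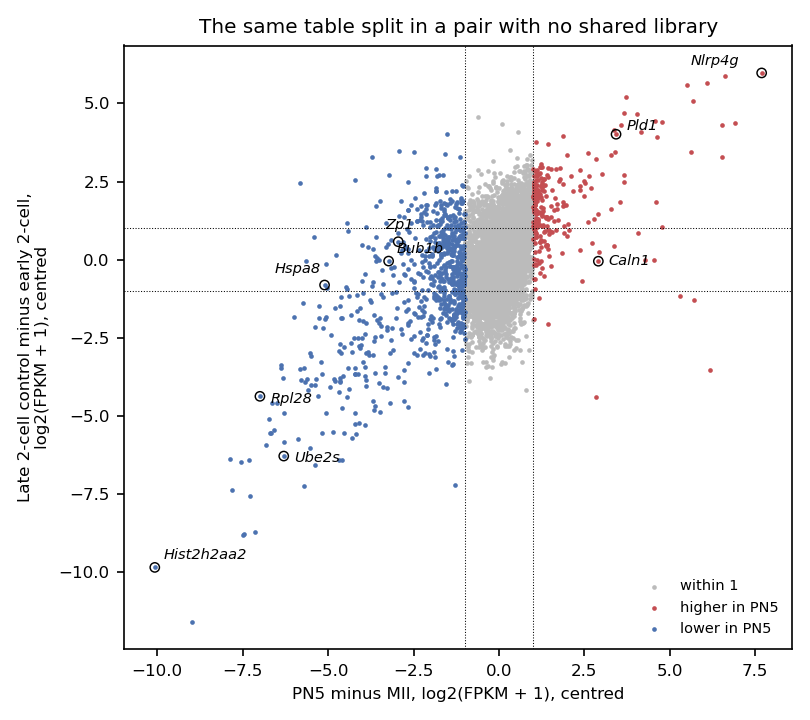
Difference between late 2-cell control and early 2-cell embryos (vertical axis) against the difference between PN5 zygotes and MII oocytes (horizontal axis), both in log2(FPKM + 1) after centring, for the 6009 compared genes; dotted lines mark 1 and −1 and rings mark named genes. Of the genes higher in PN5, 180 lie above the upper dotted line, and of those lower in PN5, 337 lie below the lower one; Bub1b, Zp1, Hspa8 and Caln1 lie between the lines.

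Some genes were near 0 in only 1 library, meaning under 1 FPKM there and 10 FPKM or more in the other. There were 129 such genes near 0 in PN5 and 23 near 0 in MII. Leaving out 22 and 9 small RNA genes left 107 and 14. The late 2-cell libraries were the control and one from embryos cultured for 14 h in 60 µM DRB and then for 12 h without it. Of the 107 near 0 in PN5, 59 were under 1 FPKM in both late 2-cell libraries too. Another count was 56 at 10 FPKM or more in early 2-cell embryos, and 38 did both. Of the 14 near 0 in MII, 13 were also under 1 FPKM in early 2-cell embryos. Genes with a pseudogene named after them in RefSeq, for which reads can be split between near-identical copies, were often among the lower ones: 111 of 229 (48.5%) were lower in PN5, against 665 of the other 5780 (11.5%), and 1 of the 229 was higher. Of the 229, 60 are ribosomal protein genes, a class in which 10 of the 14 compared genes without a named pseudogene were lower too. Gene class and named pseudogene therefore cannot be told apart here, and read splitting was not tested. With the near-0 genes, the small RNA genes, the genes with a named pseudogene and those that differed likewise between the 2-cell tables set aside, 54 genes were higher and 384 were lower in PN5.

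Messenger RNA of the kinases that hold and release the meiotic arrest was mostly level, with Mos the exception in size. Mos, the kinase that starts the cytostatic MAP kinase cascade, had 15.0 FPKM in PN5 zygotes against 173 FPKM in MII oocytes, a difference of −3.75. Its level was 7.46 FPKM in early and 3.50 FPKM in late 2-cell embryos. The RNA was thus lower in these 3 embryo libraries than in the oocyte, and table and stage cannot be told apart. Of 27 compared arrest and cell cycle kinase genes, 5 (18.5%, against 12.9% of all genes) were lower and 0 were higher in PN5, with a median of 0.10. The other 4 lower genes were Aurkc, a meiotic Aurora kinase (33.4 FPKM in PN5 zygotes against 94.7 FPKM in MII oocytes), Ccnb1, the cyclin B1 that activates Cdk1 (113 against 232 FPKM), Mapk3, a MAP kinase below Mos (65.7 against 108 FPKM), and Cks2, a Cdk-binding subunit (37.5 against 62.6 FPKM). Mapk3 and Cks2 passed the limit narrowly, at −1.03 and −1.04, and did not pass it without centring, where 3 genes were lower and 3 higher. Mos, Aurkc and Ccnb1 also differed likewise between the 2-cell tables.

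Other parts of the arrest machinery kept their levels. Map2k1, the MAP kinase kinase between Mos and the MAP kinases, had 163 FPKM in PN5 zygotes against 112 FPKM in MII oocytes, a difference of 0.21. Wee2, the oocyte kinase that inhibits Cdk1, had 369 against 216 FPKM (0.45). The mitotic kinases Plk1 (113 FPKM in PN5 zygotes against 119 FPKM in MII oocytes) and Aurka (175 against 139 FPKM) had differences of −0.39 and 0.00. Camk2g, the calmodulin-dependent kinase that carries the calcium signal of fertilization, had 168 against 117 FPKM. Arpp19, an inhibitor of the phosphatase that opposes Cdk1, was the list's largest increase at 0.93 (45.0 FPKM in PN5 zygotes against 18.3 FPKM in MII oocytes).

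Bub1b, which encodes the checkpoint kinase BubR1, had the largest decrease among the spindle checkpoint and cohesin genes, with 55.4 FPKM in PN5 zygotes against 422 FPKM in MII oocytes (difference −3.23). It had 12.2 FPKM in early and 18.0 FPKM in late 2-cell embryos, a difference of −0.04 across the same table split. Smc3, a core cohesin subunit, had 9.51 FPKM in PN5 zygotes against 29.8 FPKM in MII oocytes, and Mad1l1, a checkpoint protein, had 17.8 against 31.3 FPKM. These 3 were the lower genes among 16 compared (18.8%, against 12.9% of all genes), with 0 higher and a median of 0.00. Pttg1, the securin that guards separase, had 611 FPKM in PN5 zygotes against 318 FPKM in MII oocytes (0.61), Birc5, the survivin of the chromosomal passenger complex, had 305 against 243 FPKM (0.00), and Ttk, the Mps1 checkpoint kinase, had 172 against 90.3 FPKM (0.59). Mad1l1 differed likewise between the 2-cell tables, and without centring 2 genes of the list were higher and 2 were lower. Of 29 spindle and kinetochore genes, 1 was higher (3.45%, against 4.08% of all genes) and 0 were lower (12.9% of all genes). The higher gene was Cep55, which acts in the last step of cell separation (90.1 FPKM in PN5 zygotes against 35.0 FPKM in MII oocytes, 1.01). The Cep55 call ended with a pseudocount of 5 FPKM, and without centring 5 genes were higher. Tacc3, a spindle pole protein, had 379 against 270 FPKM and Kif23, a midzone motor, had 163 against 122 FPKM.

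The anaphase-promoting complex had 2 lower genes among 15 compared (13.3%, against 12.9% of all genes) and 0 higher genes. The complex had a median of −0.31, which became 0.01 without centring. Its activator Cdc20 had 69.5 FPKM in PN5 zygotes against 45.4 FPKM in MII oocytes, and the core subunit Cdc27 had 69.4 against 38.8 FPKM, differences of 0.28 and 0.50. Ube2s, the ubiquitin-conjugating enzyme that extends its chains, had 2.78 FPKM in PN5 zygotes against 252 FPKM in MII oocytes. Ube2s was also at 5.01 FPKM in late against 333 FPKM in early 2-cell embryos, and thus differed likewise between the 2-cell tables. The other lower gene, the small subunit gene Anapc13, had 3.54 FPKM in PN5 zygotes against 10.2 FPKM in MII oocytes.

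Several of the most abundant oocyte mRNAs for the egg coat and for secreted signals were lower in PN5. Zp1, a zona pellucida protein, had 39.6 FPKM in PN5 zygotes against 250 FPKM in MII oocytes (−2.95). Zp3, the zona protein long studied as a sperm receptor, had 43.5 against 175 FPKM (−2.30), and Zp2, the zona protein cleaved after fertilization, had 104 against 197 FPKM (−1.24). All 3 mRNAs for zona filament proteins were thus past the limit after centring, and none of them differed by 1 between late and early 2-cell embryos. The Zp2 call ended without centring, where its difference was −0.92. Plat, the tissue plasminogen activator, had 133 FPKM in PN5 zygotes against 642 FPKM in MII oocytes (−2.59), and Gdf9, the oocyte growth factor that signals to cumulus cells, had 406 against 1411 FPKM (−2.12). Astl, which encodes ovastacin, the protease that cleaves Zp2, had 35.8 against 115 FPKM (−1.97), and Fgf8, another oocyte growth factor, had 25.4 against 71.1 FPKM (−1.77). Of 22 compared genes of this group, 7 were lower (31.8%, against 12.9% of all genes) and 0 were higher, with a median of −0.25. Without centring 6 were lower and 4 were higher, and the median was 0.07. Fgf8 was the only one of the 7 that differed likewise between the 2-cell tables.

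The group was not uniform, and its other abundant members lay on the opposite side of the centre. Bmp15, the growth factor partner of Gdf9, had 1393 FPKM in PN5 zygotes against 582 FPKM in MII oocytes, a difference of 0.93. The oocyte-secreted protein genes Oosp1 (1063 FPKM in PN5 zygotes against 572 FPKM in MII oocytes) and Oosp3 (491 against 233 FPKM) had differences of 0.57 and 0.75. Omt2b, an oocyte maturation gene, had 643 against 317 FPKM. Bmp15, Oosp3 and Omt2b passed the limit without centring. Gdf9 and Bmp15 therefore had opposite signs in the same pair of libraries, with levels in early 2-cell embryos of 144 and 274 FPKM. The plot of levels by stage shows these courses side by side.

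**Figure D3:**
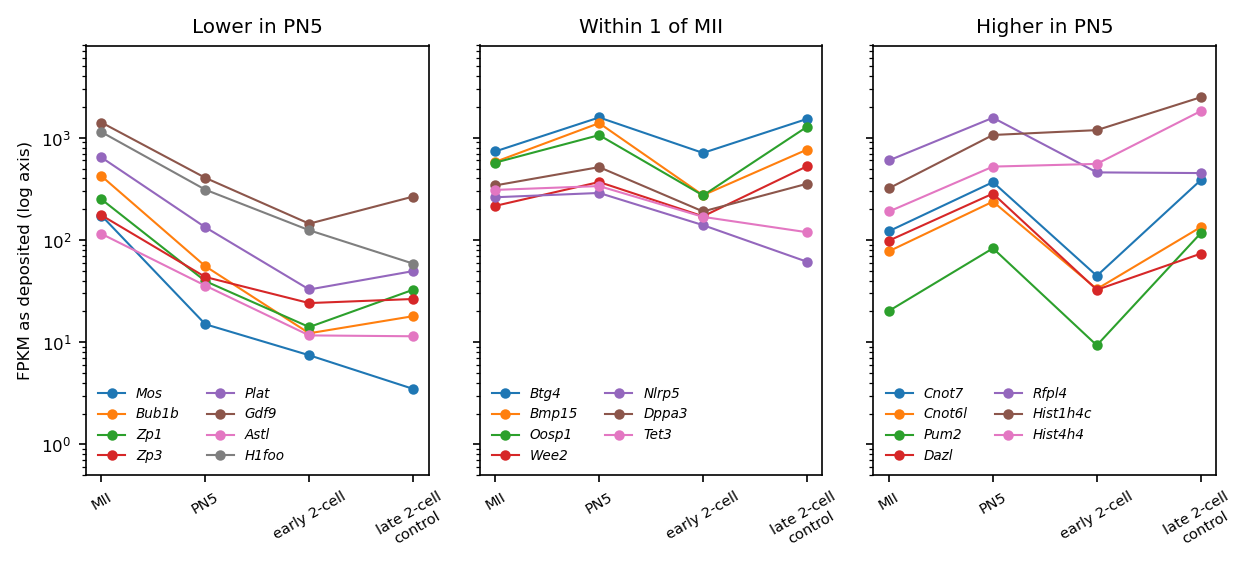
FPKM as deposited, on a log axis, of named maternal and early embryonic genes in the MII, PN5, early 2-cell and late 2-cell control libraries, 1 library per stage. The left panel holds genes lower in PN5 than in MII (Mos at 15.0 and 173 FPKM, Gdf9 at 406 and 1411 FPKM), the middle panel genes with a difference under 1, and the right panel genes higher in PN5; PN5 and late 2-cell control share a table.

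Oocyte transcription factors were mostly within the limit. Of 11 compared, 2 (18.2%, against 12.9% of all genes) were lower and 0 were higher, with a median of −0.28 that became 0.05 without centring. Zar1, an RNA-binding regulator of stored mRNA grouped in this list as a maternal-effect gene, had 245 FPKM in PN5 zygotes against 906 FPKM in MII oocytes (−2.21), and its relative Zar1l had 183 against 173 FPKM (−0.25). Figla, the factor that drives zona genes in growing oocytes, had 4.34 against 10.5 FPKM (−1.37), a call that ended with a pseudocount of 5 FPKM. Nobox (107 FPKM in PN5 zygotes against 128 FPKM in MII oocytes) and Lhx8 (81.9 against 84.1 FPKM), homeobox factors of the growing follicle, had differences of −0.58 and −0.36. Foxo3, which restrains follicle activation, had 188 against 182 FPKM, and Sall4, Sebox, Nr6a1, Taf4b and Pou2f1 lay between −0.45 and 0.51. Zar1 also differed likewise between the 2-cell tables and has a named pseudogene.

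The subcortical maternal complex, a protein assembly under the egg cortex that the embryo needs to cleave, showed both patterns within 1 complex. Tle6, one of its core proteins, had 158 FPKM in PN5 zygotes against 530 FPKM in MII oocytes (−2.06), Khdc3 had 16.1 against 65.8 FPKM (−2.28), and Padi6, which builds the cytoplasmic lattices, had 456 against 914 FPKM (−1.33). Nlrp2, an associated protein, had 21.3 against 46.9 FPKM (−1.41). These 4 were the lower genes among 16 compared (25.0%, against 12.9% of all genes). The remaining core members stayed within the limit: Nlrp5, also known as Mater, had 289 FPKM in PN5 zygotes against 262 FPKM in MII oocytes (−0.19), Ooep had 825 against 579 FPKM (0.18), and Zbed3, the most abundant of the group, had 5112 against 2951 FPKM (0.46). Among the oocyte Nlrp genes, Nlrp4f had 743 against 368 FPKM (0.68) and Nlrp14 had 416 against 571 FPKM (−0.78). The single higher gene, Nlrp4g, had 257 FPKM in PN5 zygotes and was listed at 0 in MII oocytes; it was also listed at 0 in early and had 94.0 FPKM in late 2-cell embryos. Tle6, Khdc3, Padi6 and Nlrp4g differed likewise between the 2-cell tables. The list's median was 0.39, or 0.34 without Nlrp4g, and without centring 3 genes were higher and 4 were lower.

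Genes of mRNA deadenylation and storage were among the few with more higher than lower members. Of 43 compared, 6 were higher (14.0%, against 4.08% of all genes) and 1 was lower, with a median of 0.19. Cnot7, a catalytic deadenylase of the CCR4-NOT complex, had 368 FPKM in PN5 zygotes against 122 FPKM in MII oocytes (1.26), and Cnot6l, the other type of deadenylase in that complex, had 238 against 77.7 FPKM (1.27). Cnot2, a scaffold subunit, had 68.3 against 26.0 FPKM (1.04), and Cnot6, the relative of Cnot6l, had 19.8 against 7.38 FPKM, at the limit. These 4 were the higher genes among 11 compared genes of the complex; 0 were lower and the other 7 lay between −0.93 and 0.96. Pum2, which binds mRNA 3′ ends and represses translation, had 83.0 FPKM in PN5 zygotes against 20.3 FPKM in MII oocytes (1.66), and Dazl, which activates stored mRNAs in the maturing oocyte, had 285 against 98.8 FPKM (1.19). Dazl was the only one of the 6 that did not also differ likewise between the 2-cell tables (73.5 FPKM in late against 32.6 FPKM in early 2-cell embryos, 0.56).

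Btg4, the adaptor that brings CCR4-NOT to maternal mRNA, had 1582 FPKM in PN5 zygotes against 736 FPKM in MII oocytes, a difference of 0.77. Lsm14b, a repressor of stored mRNA in the oocyte, was the lower gene (318 FPKM in PN5 zygotes against 652 FPKM in MII oocytes, −1.36), and it differed by 0.16 between late and early 2-cell embryos. Eif4e1b, the oocyte cap-binding protein, had 793 against 598 FPKM (0.08), and Eif4enif1, its partner in storage granules, had 288 against 196 FPKM (0.23). Dcp1a, a decapping cofactor that is recruited at maturation, had 287 against 284 FPKM (−0.31). Without centring 14 genes of the list were higher and 1 was lower.

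Signalling genes that keep oocyte cyclic AMP high or low had 2 higher members among 12 compared (16.7%, against 4.08% of all genes) and 0 lower. Rgs17, a regulator of G protein signalling, had 40.3 FPKM in PN5 zygotes against 13.0 FPKM in MII oocytes (1.24), and Prkar2b, a regulatory subunit of protein kinase A, had 14.8 against 5.06 FPKM (1.08). Prkar2b differed likewise between the 2-cell tables, and its call ended with a pseudocount of 5 FPKM; without centring 4 genes of the list were higher. Rgs2, which dampens G protein signals in the egg, had 356 against 165 FPKM (0.78). The phosphodiesterase Pde3a had 38.1 FPKM in PN5 zygotes against 59.3 FPKM in MII oocytes (−0.94), and the receptor gene Gpr3, which maintains arrest at the earlier prophase stage, had 59.9 against 44.2 FPKM (0.11). Gnas, Adcy9, Pde8a, Prkaca, Prkar1a, Prkar2a and Akap1 lay between −0.85 and 0.69.

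The maternal factors that remodel the pronuclei were mostly level. Of 38 compared genes of pronuclear chromatin and DNA methylation, 1 was higher (2.63%, against 4.08% of all genes). Another 3 were lower (7.9%, against 12.9% of all genes), and the median of the list was 0.00. Without centring 6 were higher and 2 were lower, with a median of 0.32. Tet3, the dioxygenase that oxidizes methylcytosine in the zygote, had 337 FPKM in PN5 zygotes against 309 FPKM in MII oocytes (−0.20). Dppa3, also called Stella, which shields maternal methylation, had 517 against 342 FPKM (0.27), and Npm2, the nucleoplasmin that helps decondense sperm chromatin, had 434 against 383 FPKM (−0.15). These levels were high in both libraries and their differences were small beside the limit of 1. Zfp57, which guards imprinted methylation, had 1506 FPKM in PN5 zygotes against 809 FPKM in MII oocytes (0.57), while its corepressor Trim28 was lower, at 42.4 against 81.9 FPKM (−1.26). Uhrf1, which links maintenance methylation to replication, had 243 against 336 FPKM (−0.79), and H3f3b, a gene for the replacement histone H3.3, had 349 against 218 FPKM (0.35).

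The other calls in this group were repair and histone chaperone genes. Xrcc1, the scaffold of single-strand break repair, had 3.50 FPKM in PN5 zygotes against 42.4 FPKM in MII oocytes (−3.52), and its level was 2.08 FPKM in early and 3.07 FPKM in late 2-cell embryos. Apex1, the endonuclease that acts before it in base excision repair, was higher, with 36.4 FPKM in PN5 zygotes against 13.4 FPKM in MII oocytes (1.06), a call that ended with a pseudocount of 5 FPKM. Npm3, a nucleoplasmin relative, had 3.34 against 14.6 FPKM (−2.09); it differed likewise between the 2-cell tables and has a named pseudogene.

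Few replication genes were called after centring. Of 41 compared licensing and DNA synthesis genes, 1 was higher (2.44%, against 4.08% of all genes). Another 2 were lower (4.88%, against 12.9% of all genes), and the median of the list was 0.04. Without centring 8 were higher and 1 was lower, with a median of 0.36. Ccne2, a cyclin of S phase entry, had 22.5 FPKM in PN5 zygotes against 7.90 FPKM in MII oocytes (1.09). Prim2, a primase subunit, had 6.11 against 15.8 FPKM (−1.51), and Tk1, thymidine kinase, had 7.13 against 13.9 FPKM (−1.16). Ccne2 and Tk1 differed likewise between the 2-cell tables, and the Ccne2 call ended with a pseudocount of 5 FPKM. The licensing factor Cdt1 (92.2 FPKM in PN5 zygotes against 85.5 FPKM in MII oocytes) and the sliding clamp Pcna (80.6 against 75.5 FPKM) had differences of −0.22 and −0.23. Dbf4, the activator of the origin-firing kinase, had 194 against 97.7 FPKM (0.66), Ccna2 had 101 against 49.6 FPKM (0.69), and Orc5, an origin recognition subunit, had 163 against 153 FPKM (−0.24).

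Replication-dependent histone genes, whose mRNAs end in a stem-loop rather than a poly(A) tail, had calls in both directions. Of 44 compared, 7 were higher (15.9%, against 4.08% of all genes) and 17 were lower (38.6%, against 12.9%). Without centring 15 were higher and 17 were lower. Of the 17, 13 were near 0 in PN5 and 16 differed likewise between the 2-cell tables, and many belong to sets of near-identical copies. Hist2h2aa1 and Hist2h2aa2, such a pair, had 1.63 and 0.0009 FPKM in PN5 zygotes against 1152 and 1075 FPKM in MII oocytes, and they had 0.0001 and 3.20 FPKM in late against 3052 and 2848 FPKM in early 2-cell embryos. Without the 13 near-0 genes, 31 genes remained, of which 7 were higher and 4 were lower, and their median was 0.70 against 0.23 for all 44. Hist1h1a, a linker histone gene grouped with them, had 1915 FPKM in PN5 zygotes against 925 FPKM in MII oocytes (0.72), and Hist1h3f had 604 against 266 FPKM (0.85).

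Of the 7 higher histone genes, 5 encode histone H4. Hist1h4c had 1066 FPKM in PN5 zygotes against 321 FPKM in MII oocytes (1.40), Hist1h4d had 72.2 against 21.4 FPKM (1.39), and Hist1h4i had 262 against 89.4 FPKM (1.21). Hist4h4 had 523 against 190 FPKM (1.13) and Hist1h4f had 30.6 against 10.9 FPKM (1.09). The 2 others were H2B genes, Hist1h2bk (631 FPKM in PN5 zygotes against 207 FPKM in MII oocytes, 1.27) and Hist3h2ba (36.2 against 11.6 FPKM, 1.25). Of these 7, Hist1h4c, Hist1h4i and Hist1h4f did not differ by 1 between late and early 2-cell embryos (0.47, 0.56 and 0.74). Hist1h4a (266 FPKM in PN5 zygotes against 139 FPKM in MII oocytes), Hist1h4b (69.5 against 48.5 FPKM) and Hist1h4h (176 against 101 FPKM) stayed within the limit, and Hist1h4j, Hist1h4k, Hist1h4m and Hist1h4n were lower, with 0 to 3.28 FPKM in PN5 zygotes against 16.0 to 50.9 FPKM in MII oocytes. These 4 lower genes differed likewise between the 2-cell tables.

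**Figure D4:**
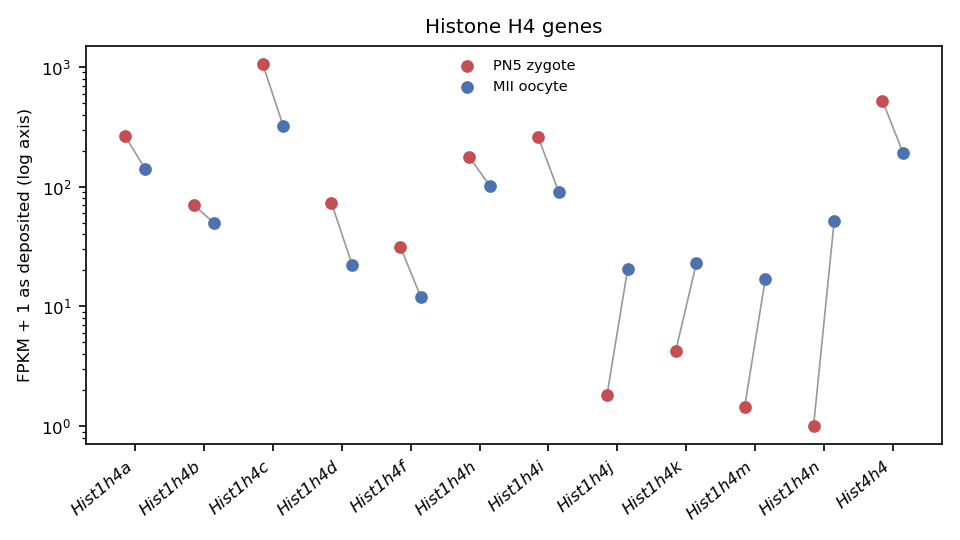
FPKM + 1 as deposited, on a log axis, of the 12 histone H4 genes in the PN5 zygote (red, left point) and the MII oocyte (blue, right point), 1 library each. In 8 genes the PN5 point is above the MII point, and in Hist1h4j, Hist1h4k, Hist1h4m and Hist1h4n it is far below it.

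The promoters of the 5 higher H4 genes are shown because H4 genes share a cell cycle element read by the factor HINFP. These 5 were picked by their call. Each line gives the 100 bases just before the annotated start in RefSeq (GRCm38.p6), 5′ to 3′ on the gene's strand, and the capitals mark GGTCCG, the core of that element. The promoter of Hist1h4n, which was listed at 0 in PN5 zygotes and had 50.9 FPKM in MII oocytes, follows for comparison. The files use build mm9, so these coordinates apply to the RefSeq build alone.
Hist1h4c (H4c3, chr13:23698459-23698558, minus strand): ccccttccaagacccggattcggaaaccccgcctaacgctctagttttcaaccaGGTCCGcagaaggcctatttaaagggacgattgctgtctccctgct
Hist1h4d (H4c4, chr13:23581468-23581567, plus strand): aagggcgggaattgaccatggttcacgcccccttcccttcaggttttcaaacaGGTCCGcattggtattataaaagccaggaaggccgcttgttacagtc
Hist1h4f (H4c6, chr13:23551669-23551768, minus strand): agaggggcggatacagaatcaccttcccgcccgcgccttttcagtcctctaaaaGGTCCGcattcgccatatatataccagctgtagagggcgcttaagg
Hist1h4i (H4c9, chr13:22041363-22041462, minus strand): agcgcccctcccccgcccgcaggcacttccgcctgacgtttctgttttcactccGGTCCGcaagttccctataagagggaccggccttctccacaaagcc
Hist4h4 (H4f16, chr6:136804432-136804531, minus strand): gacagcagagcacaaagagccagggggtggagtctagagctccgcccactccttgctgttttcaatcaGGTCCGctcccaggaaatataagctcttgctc
Hist1h4n (H4c18, chr13:21832198-21832297, minus strand): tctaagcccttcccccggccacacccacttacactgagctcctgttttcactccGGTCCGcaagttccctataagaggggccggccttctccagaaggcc

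GGTCCG, on either strand, was found in these 100 bases in 9 of 12 H4 genes, in 1 of 46 other replication histone genes and in 3.06% of 32851 promoters of all genes. It was found in all 5 higher and all 4 lower H4 genes, so it did not sort higher from lower H4 genes. In the 3 within the limit it was not found in the 100 bases. For Hist1h4h, among these 3, the 100 bases end in ggtcc, so a match running past the annotated start could not be seen. CCAAT, the box bound by NF-Y, was found in 42 of the 46 other histone genes, in 2 of 12 H4 genes and in 18.9% of all promoters. TATAA was found in 20 of the 46, 6 of the 12 and 10.2% of all promoters. A match is a string of letters and not a measured binding site. Of 63 replication histone genes of the list, 58 had a promoter in the RefSeq table. Hist1h2be had 2 promoters and was counted once, and Hist1h2ao and Hist1h2ap share 1 promoter and were counted as 2 genes.

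Linker histones and histone mRNA factors had 2 lower genes among 10 compared (20.0%, against 12.9% of all genes) and 0 higher. Without centring 3 were higher and 2 were lower. H1foo, the oocyte linker histone that is replaced after fertilization, had 311 FPKM in PN5 zygotes against 1138 FPKM in MII oocytes (−2.20), and it had 125 FPKM in early and 58.8 FPKM in late 2-cell embryos, so that it differed likewise between the 2-cell tables. The somatic linker histone genes Hist1h1e (16.1 FPKM in PN5 zygotes against 7.16 FPKM in MII oocytes), Hist1h1d (25.1 against 16.6 FPKM) and H1f0 (44.8 against 29.6 FPKM) had differences of 0.76, 0.26 and 0.26. Hist1h1c had 14.4 against 14.2 FPKM and H1fx had 44.6 against 52.3 FPKM. Slbp, which binds the histone stem-loop, had 518 against 264 FPKM (0.64), Casp8ap2, a cofactor of histone mRNA processing, had 57.8 against 24.6 FPKM (0.88), and Lsm10, a subunit of the particle that cuts histone pre-mRNA, was lower (18.2 FPKM in PN5 zygotes against 59.7 FPKM in MII oocytes, −1.97).

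Most genes of the 2-cell programme had little RNA at either stage. Of 44 in the tables, 7 reached 10 FPKM and were compared. Of these 7, 1 was lower in PN5 (14.3%, against 12.9% of all genes) and 0 were higher. The lower gene was D5Ertd577e (22.5 FPKM in PN5 zygotes against 46.3 FPKM in MII oocytes), which differed likewise between the 2-cell tables. The other 6, Arg2, Sp110, Zfp750, Nelfa, Pramef12 and Cml2, are also present in the oocyte and lay between −0.60 and 0.28. At 1 FPKM or more there were 14 of the 44 in PN5 zygotes and 9 in MII oocytes, against 33 in early and 39 in late 2-cell embryos. Dux, the homeobox gene that drives this programme, had 2.24 FPKM in PN5 zygotes, 0.11 FPKM in MII oocytes and 25.4 FPKM in early 2-cell embryos. Zscan4d, one of its targets, had 0.97 FPKM in PN5 zygotes against 0.65 FPKM in MII oocytes, and 12.8 FPKM in late 2-cell embryos. Tcstv3 had 5.91 FPKM in PN5 zygotes and was listed at 0 in both MII oocytes and early 2-cell embryos, with 49.6 FPKM in late 2-cell embryos. Zfp352 had 0.24 FPKM in PN5 zygotes, was listed at 0 in MII oocytes and had 95.7 FPKM in late 2-cell embryos.

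Among Obox and other activation-linked transcription factors, 1 of 19 compared genes was higher (5.26%, against 4.08% of all genes). Another 2 were lower (10.5%, against 12.9% of all genes), and the median of the list was 0.28. Without centring 2 were higher and 1 was lower. The oocyte homeobox genes Obox5 (585 FPKM in PN5 zygotes against 299 FPKM in MII oocytes) and Obox1 (381 against 317 FPKM) had differences of 0.64 and −0.07. Obox2 had 11.7 FPKM in PN5 zygotes and was listed at 0 in MII and early 2-cell libraries. Obox3, which becomes abundant at the late 2-cell stage (88.7 FPKM), had 0.35 FPKM in both. Nfyc, a subunit of NF-Y, was lower (30.3 FPKM in PN5 zygotes against 71.1 FPKM in MII oocytes, −1.52) and differed likewise between the 2-cell tables, whereas its partner Nfya had 150 against 179 FPKM (−0.58). Dppa2, which helps activate Dux, had 17.9 against 31.8 FPKM (−1.11). Klf17 (371 FPKM in PN5 zygotes against 187 FPKM in MII oocytes, 0.66), Yap1 (425 against 243 FPKM, 0.48) and Pou5f1 (189 against 147 FPKM, 0.03) were abundant at both stages. Of 23 immediate early genes, which respond quickly to stimuli, 3 were compared and lay between 0.12 and 0.51; Egr1 had 12.6 FPKM in PN5 zygotes against 6.78 FPKM in MII oocytes. Of 16 lineage genes only Gata4 was compared (16.4 against 12.1 FPKM, 0.10).

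Of all the lists, the ribosomal protein genes held the most lower members. Of 74 compared ribosomal protein genes, 65 (87.8%, against 12.9% of all genes) were lower in PN5 and 0 were higher, with a median of −3.89. Rpl28 was listed at 0 in PN5 zygotes and had 126 FPKM in MII oocytes, and Rpl35 had 1.24 against 163 FPKM. Rpl41 had 48.0 against 173 FPKM (−2.15) and Rpl32 had 53.7 against 140 FPKM (−1.68). Rpl4 had 112 FPKM in PN5 zygotes against 123 FPKM in MII oocytes (−0.47), and Rps27l, a p53-induced relative of Rps27, had 103 against 53.9 FPKM (0.60). Of the 74 genes, 37 were near 0 in PN5 and 60 have a named pseudogene, and 34 of the 65, Rpl28 and Rpl35 among them, also differed likewise between the 2-cell tables. With the near-0 genes set aside, 28 of 37 were still lower, with a median of −2.81. With the genes that have a named pseudogene set aside, 10 of 14 were lower, with a median of −1.99. Of the 65, 6 had none of these features, among them Rps14 (11.7 FPKM in PN5 zygotes against 86.2 FPKM in MII oocytes). Table and stage cannot be told apart in the group's difference.

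Genes of energy supply and translation had lower members and no higher ones after centring. Of 70 compared nuclear oxidative phosphorylation genes, 29 (41.4%, against 12.9% of all genes) were lower and 0 were higher, with a median of −0.79; 20 of the 29 did not differ likewise between the 2-cell tables. Atp5g1, a gene for the ring subunit of ATP synthase, had 4.71 FPKM in PN5 zygotes against 52.3 FPKM in MII oocytes (−3.49), and Cox5a (164 against 102 FPKM, 0.35), Atp5b (161 against 120 FPKM, 0.10) and Cox8a (105 against 51.1 FPKM, 0.70) were level or above the centre. The group therefore split between subunits of the same enzymes. Of 52 translation factor genes, 12 (23.1%, against 12.9% of all genes) were lower and 0 higher, with a median of −0.36 that became −0.04 without centring. Eif4a1, a helicase of the cap complex, had 42.6 FPKM in PN5 zygotes against 155 FPKM in MII oocytes (−2.16), and 5 subunits of eIF3 besides Eif3j1 were lower, at −1.39 to −2.35 (Eif3d, Eif3g, Eif3k, Eif3l and Eif3m). Eef1a1, the main elongation factor, had 213 against 401 FPKM (−1.23), while Eif5a had 206 against 132 FPKM (0.31). Eif4a1, Eif3j1 and Eef1a1 differed likewise between the 2-cell tables, and the Eef1a1 call ended without centring.

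Of 38 proteasome genes, 8 (21.1%, against 12.9% of all genes) were lower and 0 were higher, with a median of −0.29 that became 0.03 without centring. The core subunit gene Psmb4 had 37.9 FPKM in PN5 zygotes against 69.4 FPKM in MII oocytes (−1.17), and Psma3 had 2.00 against 19.0 FPKM (−2.94). Psma2 (168 against 107 FPKM) and Psme4, the activator gene also known as PA200 (113 against 49.9 FPKM), had differences of 0.31 and 0.83. Of 22 chaperonin and heat shock genes, 6 (27.3%, against 12.9% of all genes) were lower and 0 were higher. The median of −0.30 became 0.02 without centring, and 3 of the 6 differed likewise between the 2-cell tables. Hspa8, the constitutive Hsp70, had 4.86 FPKM in PN5 zygotes against 166 FPKM in MII oocytes (−5.10), with 9.21 FPKM in early and 7.33 FPKM in late 2-cell embryos. Hsp90aa1 had 113 FPKM in PN5 zygotes against 388 FPKM in MII oocytes (−2.09), and differed likewise between the 2-cell tables, whereas its relative Hsp90ab1 had 116 against 92.0 FPKM (0.01). Cct5, a chaperonin subunit, had 41.4 against 109 FPKM (−1.70), and Cct3, of the same ring, had 84.0 against 91.1 FPKM (−0.44).

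Genes that build the ribosome were mostly within the limit. Of 52 compared ribosome assembly genes, 4 (7.69%, against 12.9% of all genes) were lower and 0 were higher, with a median of −0.14. Without centring 1 was lower and 2 were higher, with a median of 0.18. The kinase gene Riok1 had 259 FPKM in PN5 zygotes against 132 FPKM in MII oocytes (0.63) and the GTPase gene Bms1 had 196 against 174 FPKM (−0.15). Emg1, a methyltransferase of the small-subunit rRNA, was the largest decrease (22.7 FPKM in PN5 zygotes against 56.5 FPKM in MII oocytes, −1.59). Polr1a, the large subunit of RNA polymerase I, had 7.25 against 12.6 FPKM, at the limit.

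The transcription machinery had calls in both directions. Of 82 compared genes of RNA polymerase II, its general factors and Mediator, 5 (6.10%, against 4.08% of all genes) were higher and 13 (15.9%, against 12.9%) were lower, shares near those of all genes. The median of −0.01 became 0.30 without centring, where 9 were higher and 8 were lower. Polymerase subunits supplied 5 of the lower genes: Polr2c had 64.9 FPKM in PN5 zygotes against 134 FPKM in MII oocytes (−1.36), and Polr2e, Polr2i, Polr2k and Polr2l ranged from −1.30 to −3.76. Among the higher genes, Med27, a Mediator subunit, had 133 FPKM in PN5 zygotes against 28.5 FPKM in MII oocytes (1.86), Gtf2a2, a TFIIA subunit, had 57.0 against 19.4 FPKM (1.19), and Med13, of the Mediator kinase module, had 27.4 against 9.64 FPKM (1.10). Taf1a, a subunit of the polymerase I factor SL1 that fell under the list's name pattern, had 114 FPKM in PN5 zygotes and was listed at 0 in MII and early 2-cell libraries. Med27, Gtf2a2, Med13 and Taf1a differed likewise between the 2-cell tables, as did Polr2c and Polr2l among the lower genes.

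Of 64 splicing genes, 13 (20.3%, against 12.9% of all genes) were lower and 0 were higher (4.08% of all genes), with a median of −0.08 that became 0.23 without centring. Prpf8, the core of the spliceosome, had 23.1 FPKM in PN5 zygotes against 73.1 FPKM in MII oocytes (−1.93), and Snrpd2, a ring protein of the small nuclear particles, had 7.61 against 38.3 FPKM (−2.48). Hnrnpu (157 against 104 FPKM, 0.27) and Sf3b1 (104 against 56.1 FPKM, 0.56) stayed within the limit. Of 20 autophagy genes, 3 (15.0%, near the 12.9% of all genes) were lower and 0 were higher, with a median of −0.07. Without centring 2 were lower and 3 were higher, with a median of 0.25. Atg16l1, which helps attach the autophagy tag to membranes, had 16.0 FPKM in PN5 zygotes against 54.9 FPKM in MII oocytes (−2.03), whereas its partner Atg5 had 212 against 102 FPKM (0.72). The plot of list differences sets these groups beside each other.

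**Figure D5:**
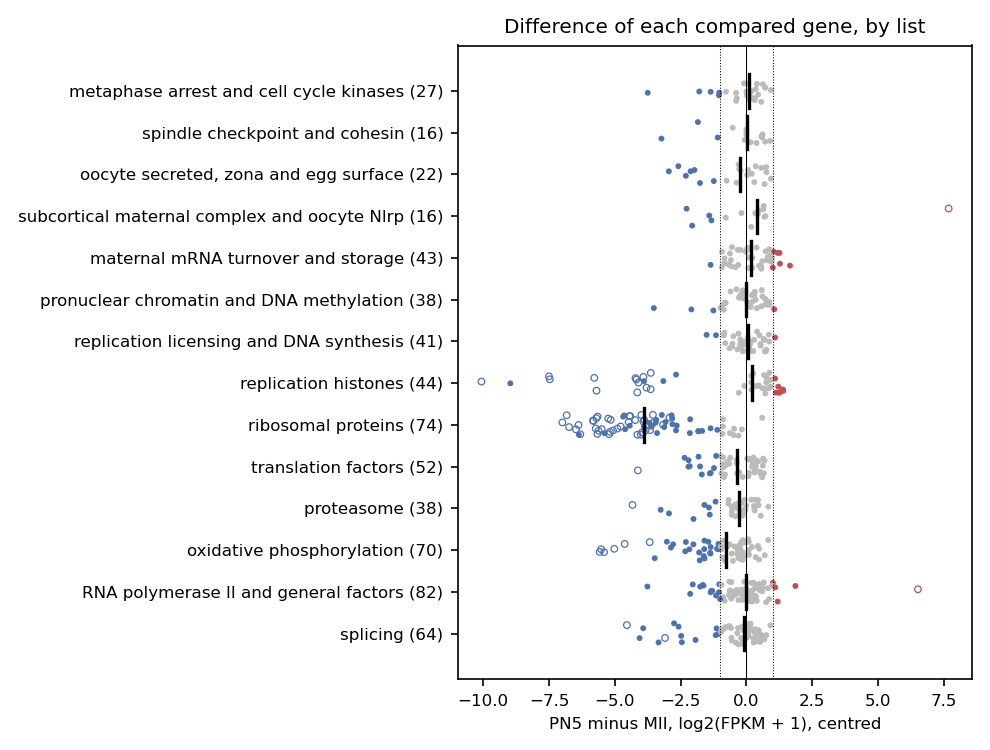
Difference between PN5 and MII in log2(FPKM + 1) after centring for every compared gene of 14 lists, with the number of compared genes in brackets; blue points are lower, red points higher and grey points within the limit of 1 (dotted lines), open circles are near 0 in 1 library, and black bars are medians. The ribosomal protein median is −3.89, that of oxidative phosphorylation −0.79, and those of the other 12 lists lie between −0.36 and 0.39.

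With 1 FPKM required in both libraries, the largest increases were Gm3219, Pld1, Nav2, Caln1, Gm9833, Dab2, Ipcef1, Tmem29, Nedd4l and Esrrg. Pld1, a phospholipase D, had 201 FPKM in PN5 zygotes against 14.0 FPKM in MII oocytes (3.42), and Nav2, a neuron navigator gene, had 80.7 against 5.21 FPKM (3.39). Both were also higher in the other pair, with 223 and 99.5 FPKM in late against 8.14 and 5.08 FPKM in early 2-cell embryos. Of the 10, only Caln1 and Ipcef1 did not differ likewise there. Caln1, a calneuron gene, had 21.1 FPKM in PN5 zygotes against 1.37 FPKM in MII oocytes (2.91), with 5.42 FPKM in early and 7.91 FPKM in late 2-cell embryos. Ipcef1, an interactor of cytohesin exchange factors, had 71.7 against 7.78 FPKM (2.73), with 4.26 and 9.97 FPKM in early and late 2-cell embryos.

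A ranking chosen after the data were seen left out genes that differed likewise between the 2-cell tables and genes with a named pseudogene. After Caln1 and Ipcef1 it held Pdzk1, a scaffold for membrane transporters (56.5 FPKM in PN5 zygotes against 7.47 FPKM in MII oocytes, 2.44), and Ppfibp2, a liprin (80.9 against 11.6 FPKM, 2.37). Cenpk, a kinetochore subunit, had 15.4 against 2.20 FPKM (2.05) and Camta1, a calmodulin-binding factor, had 24.7 against 4.23 FPKM (1.98). Pdzk1 was highest in PN5 among the stages, with 4.58 FPKM in early and 3.75 FPKM in late 2-cell embryos. Daam1, a formin, had 115 FPKM in PN5 zygotes against 28.4 FPKM in MII oocytes (1.66), Sfmbt1, a chromatin reader, had 294 against 79.9 FPKM (1.54), and Dync1i2, a dynein chain, had 156 against 43.4 FPKM (1.50).

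With the same requirement the largest decreases included Hist2h2aa1, Rpl35, Ube2s, Gm2042, Hspa8, Pam16, Fau and Rps7, and of these only Hspa8 did not differ likewise between the 2-cell tables. In the ranking without such genes or named pseudogenes, the genes after Hspa8 included March7, Xrcc1, Atp5g1, Tuba1b, Bub1b, Hist1h2bp, Rps14 and Zp1. March7, a membrane ubiquitin ligase, had 5.44 FPKM in PN5 zygotes against 97.9 FPKM in MII oocytes (−4.21), with 1.13 FPKM in early and 17.6 FPKM in late 2-cell embryos. Its level was thus high in the oocyte library and low in all 3 embryo libraries named. Oog1, an oogenesin of the PRAME family, had 205 FPKM in PN5 zygotes against 399 FPKM in MII oocytes (−1.28), 146 FPKM in early 2-cell embryos and was listed at 0 in late 2-cell embryos, so that it differed likewise between the 2-cell tables.

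Among the genes near 0 in PN5, the most abundant in the other library were Hist2h2aa2, Gm10094, Akr1b3, Mir7035 and Hist2h3c2. Akr1b3, an aldose reductase, was at 0.0005 FPKM in PN5 zygotes against 222 FPKM in MII oocytes and at 0.0008 FPKM in late against 164 FPKM in early 2-cell embryos. Near 0 in MII, the highest were Nlrp4g, Snora34, Snora64, Snora7a and Taf1a. All 10 of these but Snora64 differed likewise between the 2-cell tables. Small RNA genes were nearly all called: of 53 compared, 28 were higher and 23 were lower, against 4.08% and 12.9% of all genes. Such libraries capture small RNAs poorly, and whether this bears on the calls was not tested. All 22 snoRNA and scaRNA genes among them were higher in PN5. Snord22, a box C/D snoRNA, had 406 FPKM in PN5 zygotes against 2.53 FPKM in MII oocytes and 373 FPKM in late against 24.2 FPKM in early 2-cell embryos. Of 1081 miRNA genes in the tables, 7 were above 0 in PN5 zygotes against 180 in MII oocytes, and 10 in late against 213 in early 2-cell embryos. Mir7035 and Mir1893, at 184 and 140 FPKM in MII oocytes, were listed at 0 in PN5 zygotes and in late 2-cell embryos. The counts of miRNA genes above 0 thus lay on the same side in both pairs.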

How the data were processed

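The authors deposited FPKM per gene symbol for 5 total RNA libraries, and these deposited FPKM values were the only input. Build mm9, TopHat2 2.1.1, Cufflinks 2.1.1 and CASAVA 1.8 are listed, per the submitters' processing notes, with no role for each. The use of strand and the handling of reads with several matches are not given in the sources, so genes with near-identical copies, overlapping genes and antisense genes are uncertain. Whether the 3 tables used were made by the same processing is not stated. The MII table's only column has a name that a chromatin sample also bears; it was taken as the oocyte library because the table is listed with that sample.

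Rows sharing a symbol were summed. Differences were taken as described above with Python 3.11.15 (pandas 2.3.3, numpy 2.4.6) code that was tested on simulated data with known changes. The limits were 10 FPKM for comparison, 5 FPKM for centring, a pseudocount of 1 FPKM and a difference of 1. With 1 library per group no p-value was computed. Named genes were the 10 largest increases and decreases at 1 FPKM or more in both libraries without a small RNA symbol, the most abundant and most changed members of each list (every member of lists with 12 or fewer), the 5 highest near-0 genes per direction and the 3 most changed small RNA genes per direction. Other genes called within a list were added after their values were seen. The members and lists were chosen with earlier results of these data known. Alternatives changed the pseudocount, the filter, the centring and the genes kept. RefSeq (GRCm38.p6) gave pseudogene names, matched for 6002 of 6009 symbols, and promoter sequences. The inner cell mass table was not used here, and the chromatin samples were not analysed here. A few genes that the rule names are not reported here.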

Additional observations from a re-analysis of the deposited data

How the results depend on the processing

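The count of genes higher in PN5, 245, became 151 with a pseudocount of 5 FPKM, 143 with a filter of 30 FPKM, 715 without centring and 65 without the genes that differed likewise between the 2-cell tables. The count of genes lower in PN5, 776, became 1309 with a filter of 1 FPKM and also with no filter, 371 with a filter of 30 FPKM and 439 without the genes that differed likewise. The other settings kept both counts within 1.5 times; these included setting aside genes with a named pseudogene (244 higher and 665 lower), a setting chosen after seeing the data. Only changes of the pseudocount, the centring or the library scaling could alter a gene's difference. The other settings could at most leave a gene out, and a gene left out was not counted as having lost its call. Setting aside the genes that differed likewise between the 2-cell tables kept 187 of the 244 named genes. Of 99 called genes among the 244, 7 lost the call under at least 1 setting that kept them, and 0 changed sign. The calls of Cep55, Figla, Prkar2b, Apex1 and Ccne2 ended with a pseudocount of 5 FPKM, and those of Zp2 and Eef1a1 without centring. Another 25 named genes gained a call under at least 1 setting, all of them without centring. Only ribosomal proteins and oocyte markers had a median of 1 or more in size, and neither changed sign. Smaller medians did, such as replication histones (0.23, and −0.29 with no filter) and proteasome genes (−0.29, and 0.03 without centring). No paired analysis was possible because each stage had 1 library. Read depth is unknown, so counting error could not be given for any level.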
